A study of Rattus norvegicus with 4 samples.

Results

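The endothelial gene set comprised 9 genes of the cells that line blood vessels: the receptor genes Tie1, Tek, Eng, Kdr and Flt1, the adhesion genes Pecam1 and Cdh5, the clotting factor gene Vwf and the growth factor gene Vegfa. They were measured in the ventral prostate lobe of male F344 rats, a laboratory strain, that were 6 weeks old. One group was given 300 mg/kg of PhIP, a mutagenic heterocyclic amine that arises in meat during cooking, and was killed after 2 days. The control group was given none and was killed at the same time, and neither the route nor a vehicle is known here. The 4 rats of a group were split over 2 arrays, each hybridised with mixed RNA of 2 rats, so that the data are 2 PhIP arrays and 2 control arrays (PhIP 1, PhIP 2, control 1 and control 2). Members were all probe sets that the platform annotation gives exactly 1 gene symbol, that symbol being one of the 9. This gave 12 of the 31042 probe sets on the array, for 8 of the 9 genes, and no probe set named any of these genes together with another. No probe set carried Cdh5, which encodes VE-cadherin, as its single symbol, and this gene was not analysed here. By gene, Flt1 had 3 probe sets, Kdr and Vegfa had 2 each, and Tie1, Tek, Eng, Pecam1 and Vwf had 1 each.

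Endothelial cells carry 2 families of receptor tyrosine kinase that are largely restricted to them. VEGF receptors (Kdr and Flt1) bind VEGF-A, which is made by neighbouring cells, and drive growth and survival of vessels. Tek, the receptor of angiopoietins, and its relative Tie1 keep mature vessels stable, while endoglin (Eng) is a co-receptor for ligands of the TGF-beta family. In the prostate, a bed of capillaries runs through the stroma beneath the epithelium, and the amount of vessel is known to follow androgen supply. The comparison of PhIP with control therefore asks whether the endothelial genes were lower together with the genes of the muscle and connective tissue of the stroma.

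Values are MAS5 signals, the array maker's summary of probe brightness on a linear scale. Probasin (Pbsn), an abundant secretory protein gene of this lobe, had signals of 4273.0 and 4643.4 on the PhIP arrays and 4898.1 and 4398.8 on the control arrays. Control 2 stood somewhat apart from the others, with a correlation of its log2 values of 0.972 with control 1, whereas control 1 correlated at 0.980 and 0.979 with PhIP 1 and PhIP 2. Its ratio of 3′ to 5′ signal for actin, a measure of RNA integrity, was the highest of all (3.93 and 3.49 on the PhIP arrays, 4.18 on control 1 and 5.71 on control 2). For tested endothelial probe sets and list medians that moved by over 1.5 times without control 2, the value without it is given too. In a whole lobe, fewer endothelial cells and less RNA per endothelial cell cannot be told apart.

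Across the set, signals were mostly lower in PhIP, by a modest amount that did not pass correction for the number of probe sets. Fold changes are given on the log2(signal + 10) scale, on which a low signal moves less than its true fold, with the standard error (SE) and adjusted p of limma's moderated test. Of 12 probe sets, 9 lay above the signal filter and were tested, and 7 of these 9 were lower in PhIP, as were 53.7% of all tested probe sets. None of the 9 passed an adjusted p of 0.05 (limma; lowest adjusted p = 0.251), a threshold that 5 of 18625 tested probe sets passed (0.0268%). Without adjustment, a limma p under 0.05 was reached by 2 of the 9 on the lower side and 0 on the higher side, beside 7.61% and 5.36% of all tested probe sets. The count on the lower side was 0 of 11 without PhIP 2 (3.91% of all tested probe sets), 1 of 10 without PhIP 1 (3.76%) and 4 of 10 without control 1 (14.6%), where 1 was also higher. Both PhIP arrays lay below both control arrays in 5 of the 9, beside 26.0% of all tested probe sets, and above both in 0, beside 19.8%. Taking each gene at its brightest probe set, the 8 genes had a median log2 fold change of −0.30 (SD over genes 0.29), and the 10507 genes tested had a median of −0.03.

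**Figure D1:**
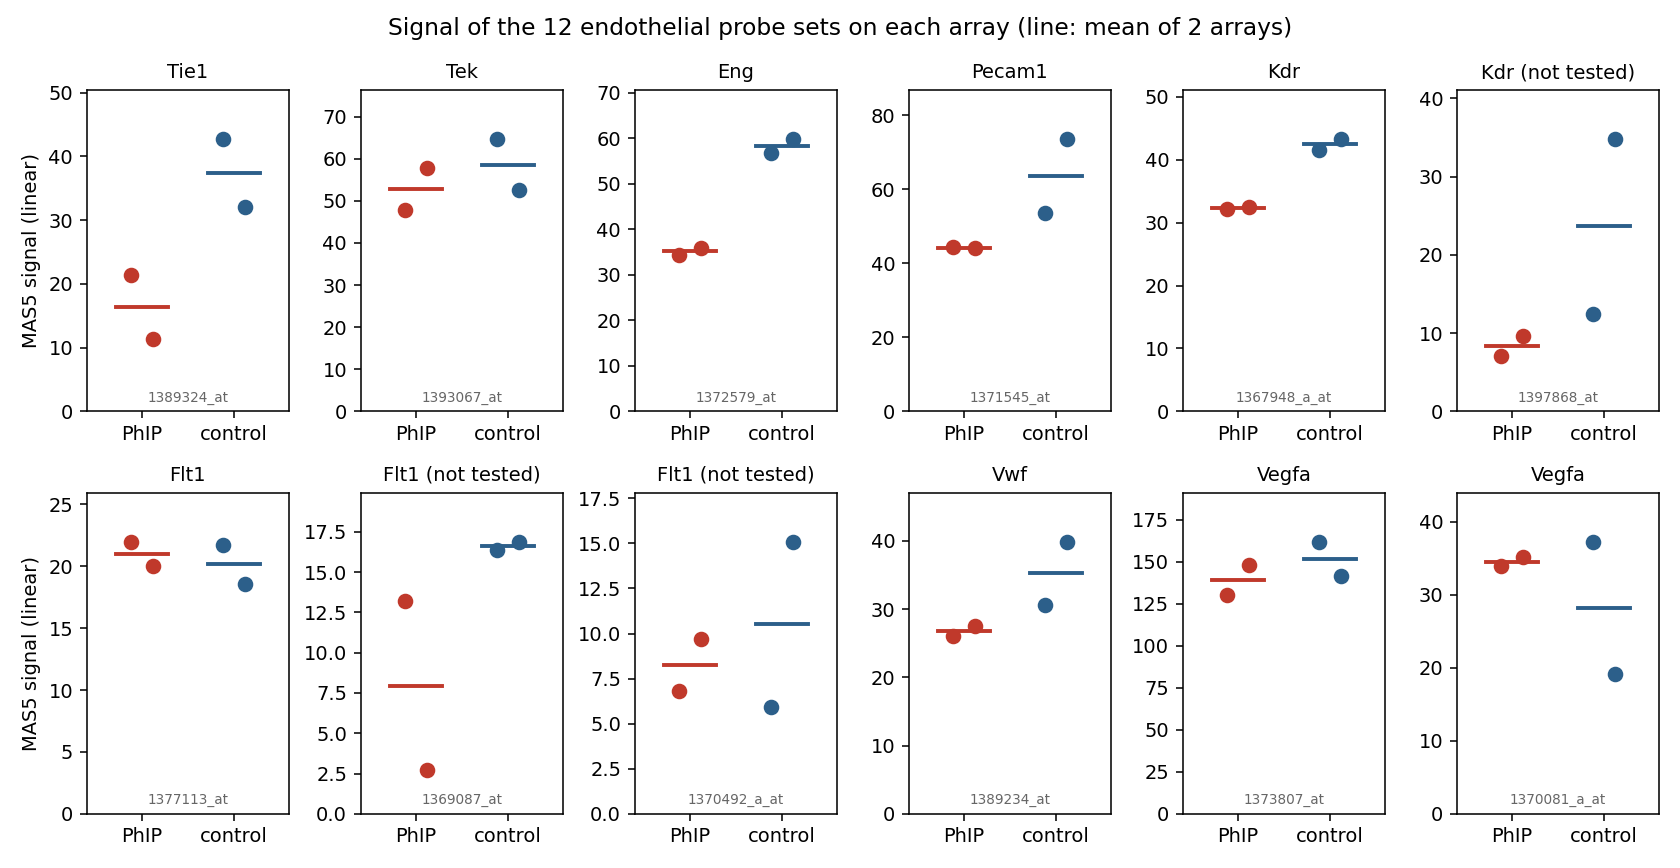
MAS5 signal (linear scale, one axis per panel from 0) of the 12 endothelial probe sets, with each PhIP array and each control array as a point and the mean of each group as a line. Tie1, Eng, Pecam1, the brighter Kdr probe set and Vwf have both PhIP arrays below both control arrays, whereas Tek, Vegfa and the brightest Flt1 probe set overlap.

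With all 4 arrays, Tie1 had the largest difference of the 9 tested probe sets. This gene encodes an orphan receptor kinase that modulates signalling by Tek. Its signal was 21.4 on PhIP 1 and 11.3 on PhIP 2, against 42.7 on control 1 and 32.1 on control 2. Both PhIP arrays were lower than both control arrays. In linear signal the 2 PhIP pools differed from each other nearly as much as the 2 control pools did, and on the log2 scale they differed more. On that scale PhIP 1 stood at −0.75 against control 1 and −0.42 against control 2, and PhIP 2 at −1.31 and −0.98. The log2 fold change was −0.87 ± 0.27 (SE), with a 95% interval from −1.50 to −0.23 and adjusted p = 0.263 (limma). Without PhIP 2 it was −0.585, smaller than for Eng (−0.62). Tek, the angiopoietin receptor also called Tie2, had 47.9 and 57.8 in PhIP, against 64.7 and 52.5 in control. Here the groups overlapped, since PhIP 2 lay above control 2. Its log2 fold change was −0.13 ± 0.19 (95% interval −0.57 to 0.32, limma adjusted p = 0.802), and −0.254 without control 2. The intervals of the 2 receptors overlap, and the difference between them was not tested.

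Eng encodes endoglin, which presents BMP and TGF-beta ligands to their receptors on endothelium. PhIP 1 and PhIP 2 had signals of 34.4 and 35.9, against 56.7 and 59.8 on control 1 and control 2. Every PhIP array was therefore below every control array, and the 4 differences between a PhIP and a control array ranged from −0.65 to −0.54 on the log2 scale. The log2 fold change was −0.60 ± 0.18 (95% interval −1.02 to −0.17, limma adjusted p = 0.251). Acvrl1, whose product ALK1 is the type I receptor that works with endoglin, is given with the signalling genes further on.

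Among the receptors of VEGF-A, Kdr encodes VEGFR2, the main signalling receptor. In its brighter probe set (1367948_a_at), Kdr had 32.1 and 32.5 in PhIP, against 41.6 and 43.3 in control. The groups did not overlap, and the log2 fold change was −0.31 ± 0.19 (95% interval −0.76 to 0.14, limma adjusted p = 0.526). The second Kdr probe set (1397868_at) lay below the signal filter, with 7.1 and 9.6 in PhIP and 12.5 and 34.8 in control. It was lower in PhIP too, but control 2 was far above control 1. Against control 1 alone, PhIP 1 stood at −0.40 and PhIP 2 at −0.20 on the log2 scale. The probe set entered the test with no filter (−0.79) and with a constant of 20 (−0.58). It also entered with PhIP 1 (−0.70), PhIP 2 (−0.89) or control 1 left out. It passed in the last of these (−1.29 ± 0.31, limma adjusted p = 0.0204), and without PhIP 2 or control 1 its difference exceeded that of Tie1. In that fit control 2 is the lone control array and is assumed to vary like the PhIP arrays, and 2361 probe sets in all passed.

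Flt1 encodes VEGFR1, which also exists as a secreted form that traps VEGF-A. Its brightest probe set (1377113_at) had 22 and 20 in PhIP, against 21.7 and 18.6 in control. These values overlapped, with a log2 fold change of 0.04 ± 0.23 (95% interval −0.50 to 0.58, limma adjusted p = 0.952), and −0.033 without control 2. Both other Flt1 probe sets lay below the filter. One (1369087_at) had 13.2 and 2.7 in PhIP and 16.4 and 16.9 in control, with no overlap. The other (1370492_a_at) had 6.8 and 9.7 in PhIP and 5.9 and 15.1 in control, with overlap. The probe sets of Flt1 thus did not share a direction, and at these low signals the gene gave no usable estimate.

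Promoter sequence is shown for 4 receptors, so that the members can be compared in their regulatory sequence. Tie1, Eng and Kdr were lower without overlap in their brightest probe sets, whereas the brightest probe set of Flt1 overlapped. Flt1 gave no usable estimate, and Tek, which overlapped too, had no window. Transcription factors of the ETS family, which bind a GGAA core, are known regulators of endothelial genes. Each window is the 250 bases before the gene's start, 5′ to 3′ on the gene's strand, from RefSeq on assembly GRCr8, which held a window for 5 of the 9 genes (these and Vegfa). Tie1 lies at chr5:137304982-137305231 (minus strand), Eng at chr3:36332029-36332278 (plus strand), Kdr at chr14:32571813-32572062 (plus strand) and Flt1 at chr12:12333180-12333429 (plus strand). Capitals mark the core GGAA on either strand, where it reads GGAA or TTCC.
Tie1: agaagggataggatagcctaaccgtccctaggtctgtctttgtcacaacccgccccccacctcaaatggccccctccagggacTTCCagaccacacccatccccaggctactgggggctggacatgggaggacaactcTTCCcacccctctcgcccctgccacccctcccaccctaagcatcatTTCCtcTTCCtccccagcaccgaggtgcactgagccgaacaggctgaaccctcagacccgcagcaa
Eng: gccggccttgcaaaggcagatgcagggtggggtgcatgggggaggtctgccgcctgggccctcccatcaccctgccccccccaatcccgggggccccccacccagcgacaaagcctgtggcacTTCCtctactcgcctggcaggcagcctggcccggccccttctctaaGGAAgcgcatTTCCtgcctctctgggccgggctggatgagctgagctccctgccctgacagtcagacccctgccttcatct
Kdr: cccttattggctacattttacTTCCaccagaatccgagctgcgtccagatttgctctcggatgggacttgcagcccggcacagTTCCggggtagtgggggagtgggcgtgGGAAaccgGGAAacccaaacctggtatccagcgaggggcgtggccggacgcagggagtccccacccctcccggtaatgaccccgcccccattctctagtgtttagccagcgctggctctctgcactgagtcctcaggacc
Flt1: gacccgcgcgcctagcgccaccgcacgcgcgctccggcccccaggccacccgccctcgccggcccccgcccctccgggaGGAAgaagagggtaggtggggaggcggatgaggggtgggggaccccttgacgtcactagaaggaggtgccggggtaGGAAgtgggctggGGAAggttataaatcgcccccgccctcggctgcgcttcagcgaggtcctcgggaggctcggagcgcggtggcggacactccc
Both Tie1 and Kdr held 4 matches and both Eng and Flt1 held 3. The core occurs in 93.2% of all 33469 windows of this length, with a median of 3 matches. Its count therefore did not set these 4 apart from other genes, nor Tie1, Eng and Kdr from Flt1. In Tie1 a pair of matches lies close together near the start, in the run that reads TTCCtcTTCC. Pairs also lie close together in Kdr (GGAAaccgGGAA) and in Eng (GGAAgcgcatTTCC), and such pairs were not counted over all windows. The motif ACGTG, a form of the core bound by hypoxia-inducible factors, had 0 matches in the windows of Tie1, Eng, Kdr, Flt1 and Vegfa. It occurs in 16.6% of all windows (both strands searched). The other form of that core, GCGTG, was not counted. It stands in the Kdr window above and, read on the other strand, in the Flt1 window. These windows can therefore not be said to lack the core. A match is a description of letters and not evidence of binding.

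Vegfa, the ligand of Kdr and Flt1, is made by epithelial and stromal cells as well as by endothelium. Its brighter probe set (1373807_at) had 130.4 and 148.3 in PhIP, against 162.0 and 141.4 in control. The groups overlapped, and the log2 fold change was −0.11 ± 0.15 (95% interval −0.46 to 0.23, limma adjusted p = 0.762). The sign turned after median centring (0.022) and with scaling to the hybridization controls (0.10), and without control 2 the value was −0.206. The dimmer probe set (1370081_a_at) had 33.9 and 35.2 in PhIP, against 37.3 and 19.1 in control, with a log2 fold change of 0.26 ± 0.27 (95% interval −0.36 to 0.89, limma adjusted p = 0.697). Its sign rested on control 2, without which the value was −0.087. Neither probe set of Vegfa gave a difference beyond the spread between arrays, and their intervals still allow a change in either direction.

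The adhesion gene Pecam1 encodes CD31, a junction protein of endothelium that platelets and leukocytes carry too. It had 44.4 and 44.1 in PhIP, against 53.6 and 73.6 in control. The PhIP arrays were nearly equal and lay below both control arrays, which differed from each other. The log2 fold change was −0.43 ± 0.20 (95% interval −0.89 to 0.04, limma adjusted p = 0.417). Vwf, which encodes the clotting protein von Willebrand factor stored in endothelium and platelets, had 26.1 and 27.5 in PhIP, against 30.6 and 39.9 in control. It did not overlap either, with a log2 fold change of −0.29 ± 0.22 (95% interval −0.79 to 0.21, limma adjusted p = 0.598). For both genes control 2 was the highest of the 4 arrays, and without it the log2 fold changes were −0.23 for Pecam1 and −0.14 for Vwf.

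**Figure D2:**
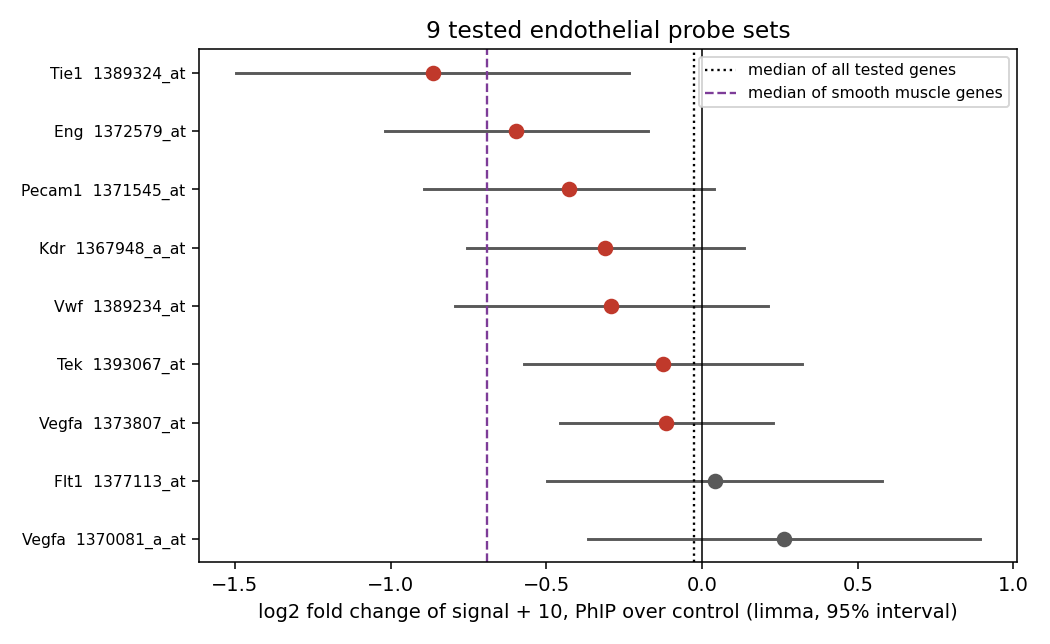
Log2 fold change of PhIP over control (signal + 10) for the 9 tested endothelial probe sets, as points with limma's 95% interval. Tie1 (−0.87) and Eng (−0.60) have intervals below 0, the other 7 cross 0, and the dashed and dotted lines mark the medians of the smooth muscle genes (−0.69) and of all tested genes (−0.03).

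Platelet genes were examined because Pecam1 and Vwf are shared with platelets. The 5 of 8 platelet and megakaryocyte genes above the filter had a median log2 fold change of 0.04 (0.29 without control 2 and −0.20 without control 1). In 0 of them did the groups separate downwards, beside 26.9% of the 10507 genes tested. Of the 5, 1 (Gp5) was above the filter in PhIP only, and its direction was in part set by the filter. Pf4, the platelet chemokine, had 39.8 and 42.0 in PhIP and 30.8 and 41.3 in control. Red blood cell genes were lower in PhIP in 3 of 3 measured genes, with a median of −1.02. The haemoglobin gene Hbb had 1260.6 and 832.0 in PhIP, against 1631.7 and 2369.8 in control, and summed signals over the 3 genes ran from 904 to 1374 in PhIP and from 1811 to 2612 in control. Leukocyte genes, some of which share Pecam1 with endothelium, had a median of 0.10 over 6 measured genes of 10 (0.049 without control 2). Of the 6, 3 were higher, all without overlap, and 3 lower, 1 of them without overlap. Among the 10507 genes tested, 2270 were higher without overlap. Cd14, the endotoxin co-receptor gene, had 1221.6 and 1163.1 in PhIP, against 796.7 and 885.1 in control (0.50 ± 0.09, limma adjusted p = 0.0977). The lysozyme gene Lyz2 stood at 0.29 ± 0.06 (limma adjusted p = 0.116) and the macrophage gene Cd68 at −0.44 ± 0.22 (limma adjusted p = 0.454). Ptprc, the defining leukocyte gene, had 20.5 and 19.7 in PhIP and 14.0 and 17.6 in control. The part that blood held in the vessels plays in the endothelial values was not tested.

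Endothelial genes outside the set gave a similar picture. Of 28 such genes, 20 were above the filter, of which 18 were lower in PhIP and 14 lower without overlap (70.0%, beside 26.9% of the 10507 genes tested). The median log2 fold change was −0.27, and 5 were lower at an unadjusted limma p under 0.05 (beside 888 of the 10507 genes tested). None of the 20 passed the adjustment. Of the 20, 2 were above the filter in control but not in PhIP, and for these the direction was in part set by the filter. Ptprb encodes the endothelial phosphatase VE-PTP, which acts on Tek. It had 90.4 and 79.3 in PhIP, against 146.2 and 137.6 in control (−0.68 ± 0.15, limma adjusted p = 0.140). Mmrn2, a matrix glycoprotein gene of endothelium, had 20 and 19.2 in PhIP, against 38.8 and 41.4 in control (−0.76 ± 0.21, limma adjusted p = 0.216). Plvap, whose product forms the diaphragms of fenestrated capillaries, had 82.1 and 74.2 in PhIP, against 103.9 and 113.2 in control (−0.43 ± 0.15, limma adjusted p = 0.320). Rasip1, which encodes an effector of small GTPases in vessel lumen formation, stood at −0.64 ± 0.24 (limma adjusted p = 0.334). Not every such gene was lower: Sox18 (0.09 ± 0.27) and Tal1 (0.05 ± 0.25), both transcription factor genes, overlapped between groups.

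Lymphatic endothelium was represented by 4 measured genes of 6, with a median of −0.34. Of the 4, 3 were lower without overlap, beside 26.9% of the 10507 genes tested. Lyve1, a hyaluronan receptor of lymphatic vessels and some macrophages, had 131.1 and 131.7 in PhIP, against 204.4 and 214.2 in control (−0.63 ± 0.13, limma adjusted p = 0.116). Pdpn, which encodes podoplanin of lymphatic endothelium and fibroblasts, had 82.2 and 80.0 in PhIP, against 106.0 and 119.3 in control (−0.43 ± 0.15, limma adjusted p = 0.312). Both separated the groups completely.

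VEGF and angiopoietin signalling beyond the set gave a median of −0.26 over 14 measured genes of 20. Of these, 10 were lower, 7 of them without overlap, and 4 were higher, 2 of them without overlap. Among the 10507 genes tested, 26.9% were lower without overlap and 2270 were higher without overlap. Nrp1, the co-receptor that enhances binding of VEGF-A to Kdr, had 46.5 and 53.9 in PhIP, against 80.5 and 80.9 in control (−0.59 ± 0.17, limma adjusted p = 0.229). Its relative Nrp2 had 60.6 and 70.4 in PhIP, against 86.4 and 89.5 in control (−0.38 ± 0.16, limma adjusted p = 0.387). Both neuropilin genes were lower on every PhIP array than on every control array. Vegfc, the ligand of lymphatic growth, had 24.2 and 15.3 in PhIP, against 29.2 and 51.7 in control (−0.74 ± 0.29, limma adjusted p = 0.348). Notch1 had 62.1 and 60.6 in PhIP, against 71.6 and 85.1 in control (−0.30 ± 0.17, limma adjusted p = 0.489). For Acvrl1 the log2 fold change was −0.32 ± 0.23, without overlap (limma adjusted p = 0.579). The angiopoietin genes Angpt1 and Angpt2 lay below the filter.

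Hypoxia-responsive genes, measured because Vegfa is one of their number, had a median of −0.08 over 16 genes of 17, which changed sign after median centring (0.05) and with scaling to the hybridization controls (0.15). Adm, which encodes the vasodilator peptide adrenomedullin, stood out with 2262.8 and 1886.8 in PhIP, against 1446.2 and 1354.6 in control (0.56 ± 0.10, limma adjusted p = 0.0977). The mitochondrial gene Bnip3 had 899.1 and 824.5 in PhIP, against 976.3 and 940.3 in control (−0.15 ± 0.09, limma adjusted p = 0.513). P4ha1 (−0.24 ± 0.15) and Ankrd37 (−0.28 ± 0.19) were lower without overlap, whereas the glucose transporter gene Slc2a1 was higher without overlap (0.18 ± 0.13). These genes therefore did not share a direction.

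The genes of the stroma that surrounds the vessels were lower by more. Smooth muscle genes had a median log2 fold change of −0.69 (14 of 14 lower, 13 without overlap, 11 at an unadjusted limma p under 0.05), and fibroblast and matrix genes one of −0.55 (17 of 18 lower, 16 without overlap, 16 at that p). No gene of these or of the other lists passed the adjustment. Among all 10507 genes tested, 5678 were lower, 2830 without overlap and 888 at an unadjusted limma p under 0.05. Col1a2, a chain of the main stromal collagen, had 1085.0 and 1011.5 in PhIP, against 2198.7 and 1704.2 in control (−0.88 ± 0.12, limma adjusted p = 0.0534). Acta2, the smooth muscle actin gene, had 823.0 and 766.7 in PhIP, against 1314.6 and 1554.4 in control (−0.84 ± 0.10, limma adjusted p = 0.0517), and is expressed by the walls of arterioles as well as by the muscle sheath of the gland. Pericytes, the mural cells of capillaries, had a median of −0.45 over 7 measured genes of 9, between the endothelial and stromal medians, but −0.22 without control 2, where the endothelial median was −0.24. Higd1b (−0.77 ± 0.25), Cspg4 (−0.79 ± 0.27) and Rgs5 (−0.58 ± 0.24) were lower without overlap, while Anpep, which the prostate epithelium also makes, was higher (0.18 ± 0.09). Of the 7 pericyte genes, 2 (Higd1b and Cspg4) were above the filter in control only. Their direction was in part set by the filter, and the median without them was not taken.

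Basement membrane genes, whose products sheath vessels, muscle and epithelium alike, had a median of −0.46 over 9 genes. The collagen IV genes Col4a1 (149.8 and 155.7 in PhIP, against 299.0 and 220.7 in control) and Col4a2 (−0.63 ± 0.15) were lower, as was the nidogen gene Nid1 (−0.46 ± 0.12). Lama5, a laminin chain of epithelial as well as vascular basement membranes, went the other way, with 357.8 and 374.1 in PhIP, against 180.4 and 215.6 in control (0.86 ± 0.13, limma adjusted p = 0.0723). Luminal epithelial genes, by contrast, had a median of 0.18 over 13 measured genes of 15, with 10 higher.

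**Figure D3:**
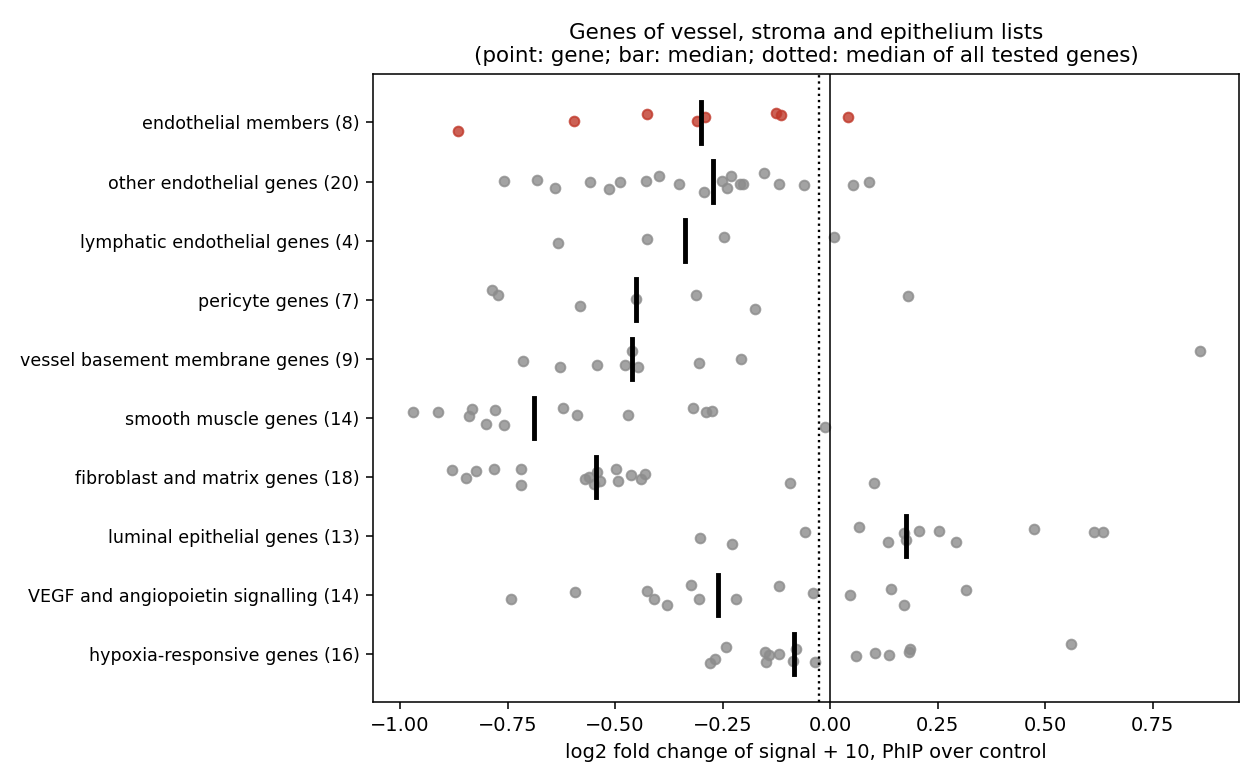
Log2 fold change of PhIP over control (signal + 10) of each measured gene in 10 lists, with the median of each list as a bar, the number of measured genes in brackets and the median of all tested genes as a dotted line. The endothelial medians (−0.30 and −0.27) lie between those of smooth muscle (−0.69) and luminal epithelium (0.18).

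Because the scale of an array enters all its genes alike, the mean log2 value of the 8 endothelial genes was also set against that of each other list within the same array, which removes most of the dependence on scaling. Against smooth muscle genes, the difference was −2.83 and −2.87 on the PhIP arrays and −3.13 and −3.11 on the control arrays, so that the endothelial mean stood 0.27 higher relative to smooth muscle in PhIP. Relative to fibroblast and matrix genes it stood 0.21 higher, with −2.81 and −2.83 in PhIP and −3.12 and −2.94 in control. In both cases the arrays of the 2 groups did not overlap. The second difference was 0.12 without control 1 and 0.30 without control 2, and the first 0.25 to 0.29 with any 1 array left out. Relative to luminal epithelial genes the order was reversed, with −4.27 and −4.30 in PhIP and −3.76 and −3.77 in control, a difference of −0.52. Relative to pericyte genes the endothelial mean stood 0.08 higher in PhIP (−0.054 and 0.011 in PhIP, −0.063 and −0.136 in control). These arrays did not overlap either, though narrowly, and 2 of the 7 pericyte genes were above the filter in control only. Against the other endothelial genes (0.14 and 0.16 in PhIP, 0.19 and 0.14 in control) and the basement membrane genes (−1.73 and −1.73 in PhIP, −1.77 and −1.66 in control) the arrays overlapped. Only the changes of these differences between groups can be read, since levels of different probe sets are not comparable, and no test of one list against another was made. The 8 genes include Vegfa (−0.11), which other cells also make, and Flt1 (0.04), which gave no usable estimate. Both lay above the mean change of the 8 genes (−0.34), so the differences of 0.27 and 0.21 would be smaller without them. The mean without them was not taken.

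**Figure D4:**
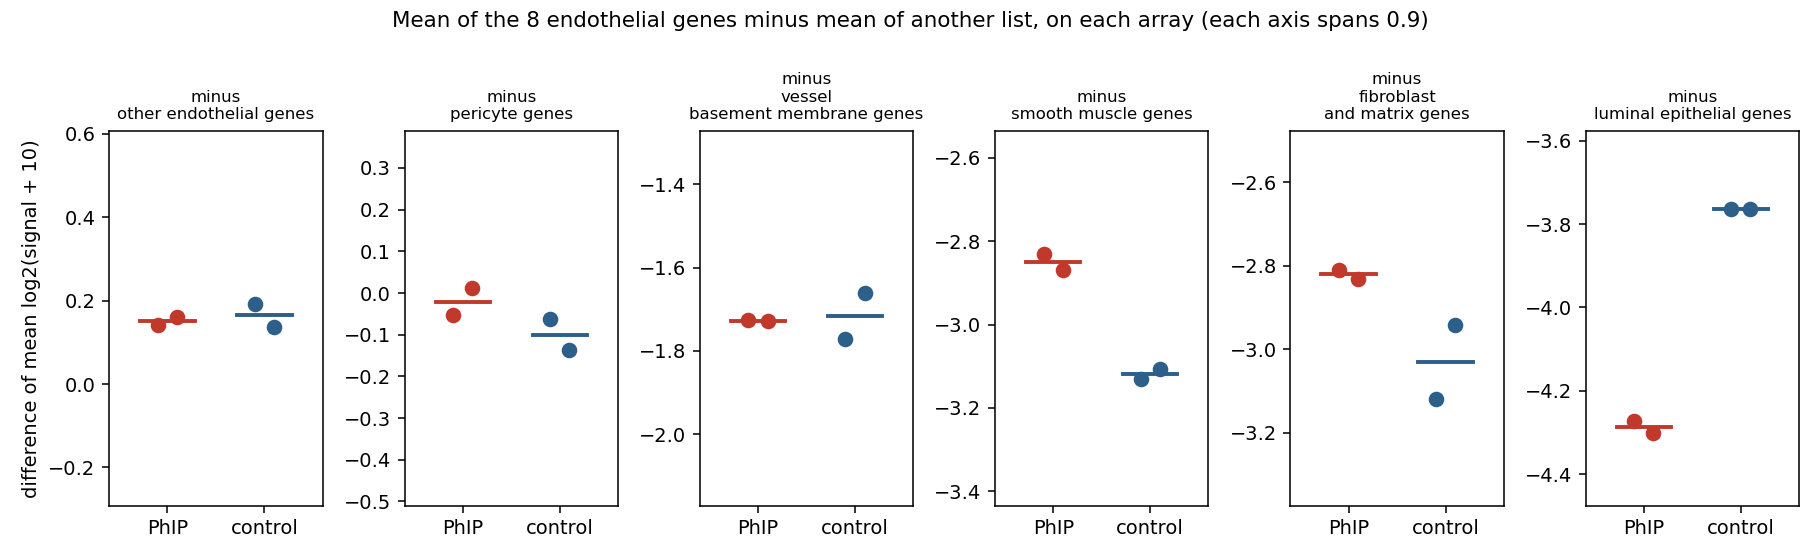
Difference between the mean log2(signal + 10) of the 8 endothelial genes and that of another list on each array, with PhIP and control arrays as points, group means as lines and every axis spanning 0.9. The PhIP arrays lie above the control arrays for smooth muscle genes, for fibroblast and matrix genes and, narrowly, for pericyte genes. They lie below the control arrays for luminal epithelial genes, and among them for other endothelial genes.

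The endothelial genes were dim, so the constant of 10 added to each signal compressed their fold changes more than those of the bright muscle and collagen genes. With no constant the endothelial median was −0.39 and the smooth muscle median −0.72. The smooth muscle median lay further below 0 than the endothelial one under every alternative run for both lists (averaging a gene's probe sets was run for the endothelial genes alone), by 0.23 (without control 1) to 0.48 (without control 2), as did the fibroblast and matrix median, by 0.12 (without control 1) to 0.40 (without control 2). All tested genes had a median of 0.11 after median centring and 0.19 with scaling to the hybridization controls, against −0.03 in the values as scaled by the authors. Relative to that median, the endothelial median stood at −0.27, and by construction at the same value after median centring. It stood at −0.31 with scaling to the hybridization controls, −0.19 after quantile normalization and −0.18 after cyclic loess.

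**Figure D5:**
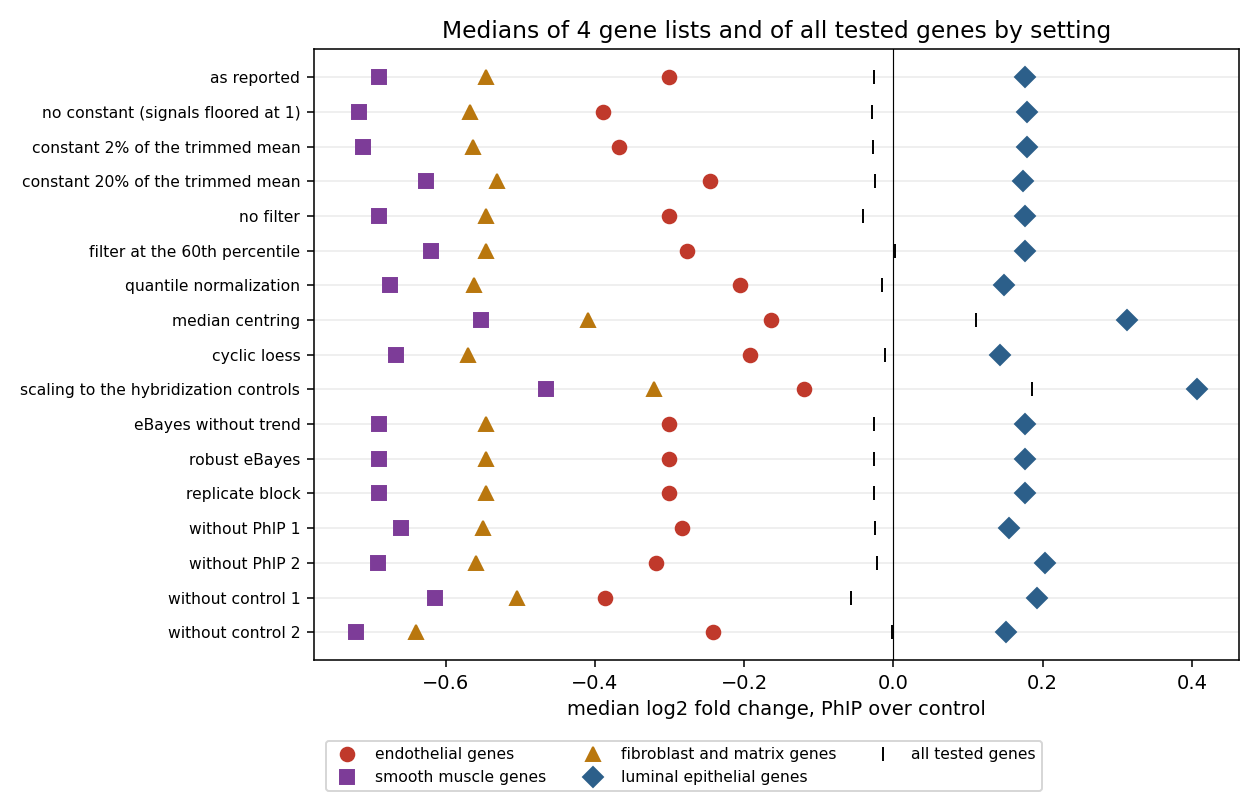
Median log2 fold change of PhIP over control for the endothelial genes, smooth muscle genes, fibroblast and matrix genes, luminal epithelial genes and all tested genes, as reported and under each alternative run for all of them. The endothelial median lies between −0.39 and −0.12 and above the smooth muscle median in every setting drawn.

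Tissue from outside the gland varied between pools. Skeletal muscle genes had summed signals of 420 to 503 in PhIP and of 904 to 1602 in control (6 measured genes of 9), but 3 of the 6 were above the filter in control only, so that their direction was in part set by the filter. Myl1, the fast myosin light chain gene, had 4.5 and 9.1 in PhIP, against 5.2 on control 1 and 305.6 on control 2. Adipocyte genes had summed signals of 143 to 245 in PhIP and of 302 to 411 in control (5 measured genes of 10), with 1 of the 5 above the filter in control only. Adipoq, the defining adipocyte gene, had 3.5 and 19.5 in PhIP, against 41.2 and 16.4 in control. Nerve and Schwann cell genes had a median of −0.62 (4 of 5 lower without overlap, beside 26.9% of the 10507 genes tested). Mbp, the myelin basic protein gene, was higher without overlap (0.49 ± 0.19, limma adjusted p = 0.348). Muscle and fat hold capillaries of their own, and their part in the endothelial values was not tested. Leaving out control 2, the array with most skeletal muscle signal, gave an endothelial median of −0.24, and leaving out control 1 gave −0.39.

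The genes whose log2 profile over the 4 arrays lay nearest to the mean profile of the 8 endothelial genes (Euclidean distance after centring each gene on its mean) were Usp27x (distance 0.014), Rasgrp2 (0.018), Hpcal1 (0.019), Rmc1 (0.033), Bcat2 (0.035) and Crybg2 (0.037). The mean centred profile was −0.16 and −0.18 on the PhIP arrays and 0.17 and 0.16 on the control arrays. With 4 arrays, a profile of this kind amounts to a step between the groups, and 10507 genes were searched.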

How the data were processed

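The authors deposited 1 linear intensity for each probe set and array, summarised with MAS5 per the submitters' processing notes. With 2% trimmed from each end, the mean signal was 100.0 on all 4 arrays, so the authors' scaling was kept. The number of arrays limits the precision. The p-values measure the spread between pools of rats, not single animals.

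Without the manufacturer's 57 control probe sets there were 31042, of which 20826 carried 1 symbol, 436 several and 9780 none. RefSeq (GRCr8) held 20758 of the 20826 by gene identifier, and 0 symbols changed. Signals were analysed as log2(signal + 10). Probe sets with a mean above the 40th percentile, a signal plus constant of 24.3, were tested (18625) in a two-sided moderated test of limma 3.58.1 under R 4.3.3 (lmFit, then eBayes with trend), p-values being adjusted by Benjamini-Hochberg over all of them, on 2 residual and 5.67 prior degrees of freedom. A gene in a list was its brightest tested probe set. The naming rule took every member with every probe set and, per list, up to 4 genes with the largest moderated statistic. Pbsn, Mbp, Myl1, Acvrl1, Angpt1, Angpt2, Sox18, Tal1 and Slc2a1 were chosen after values were seen or for their role. The members and lists were chosen with earlier results of these data known. Figures come from matplotlib 3.10.9 under Python 3.11.15.

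Alternatives were other constants, other filters, median centring, quantile normalization and cyclic loess of the arrays, scaling to 18 hybridization control probe sets, other eBayes settings, a block for the replicate number, each array left out in turn, and averaging over the probe sets of a gene.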

Additional observations from a re-analysis of the deposited data

How the results depend on the processing

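The number of tested endothelial probe sets past an adjusted limma p of 0.05 was 0 under every alternative except without control 1, where it was 1 (Kdr, 1397868_at), so leaving out 1 array gave 0 to 1. Over all probe sets, the number passing was 5, and it was 22 with a constant of 20% of the trimmed mean, 44 with the filter at the 60th percentile, 3 after cyclic loess, 52 with robust eBayes and 35 with the replicate block. It was 164 with scaling to the hybridization controls, of which 154 were higher. It was 0 with no filter, after quantile normalization, after median centring and with eBayes without trend, where 3004, 2212, 3164 and 2248 probe sets had an unadjusted limma p under 0.05. Leaving out 1 array gave 0 to 2361 (0 without either PhIP array, with 1093 and 1046 at an unadjusted p under 0.05, 2361 without control 1 and 467 without control 2). At an unadjusted limma p under 0.05, 41.3% were higher in PhIP, 79.6% after median centring and 89.1% with scaling to the hybridization controls. The cause was not tested.

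The endothelial median of −0.30 stayed below 0 under all alternatives. It was −0.39 with no constant, −0.37 and −0.25 with constants of 2% and 20%, −0.21 after quantile normalization, −0.16 after median centring, −0.19 after cyclic loess, −0.12 with scaling to the hybridization controls, and −0.39 to −0.24 when 1 array was left out. Changing the constant alters how far dim signals are compressed, by construction.

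Single probe sets reversed only where the difference was within its error. Vegfa 1370081_a_at was −0.087 without control 2, with a range of −0.087 to 0.614 when 1 array was left out, and Vegfa 1373807_at was 0.022 after median centring and 0.104 with scaling to the hybridization controls. Flt1 (1377113_at) was −0.0053 without PhIP 1 and −0.033 without control 2, in a range of −0.033 to 0.116. Tek was 0.011 after median centring, 0.071 with scaling to the hybridization controls and 0.0036 without control 1, the highest of a range that began at −0.254. Tie1, Eng, Pecam1, Kdr (1367948_a_at) and Vwf kept their direction in all alternatives in which they were tested. At the 60th percentile filter 4 of the 8 genes were left.

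The deviations of same-numbered arrays from their group means correlated at −0.056, so no pairing by number was seen, though 2 arrays a group cannot exclude it. With the replicate block, 0 of 9 endothelial probe sets passed (lowest adjusted p of limma 0.244), and 2 were lower at an unadjusted p under 0.05 (beside 6.90% of all tested probe sets). That count was 1 with scaling to the hybridization controls and 1 of 4 at the 60th percentile filter, and 2 under the other alternatives that kept all arrays.

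Both PhIP arrays below both control arrays held for 7 of all 12 endothelial probe sets, beside 25.4% of all 31042. Without control 2 it held for 10 (beside 39.2%), without control 1 for 8 (46.3%), without PhIP 2 for 9 (38.7%) and without PhIP 1 for 7 (39.5%), fewer arrays separating more often by construction.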
